A study of Mus musculus with 7 samples.

Results

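The Sprouty and Spred genes of the mouse, 7 genes in all, were examined in inner cell masses (ICMs) that carry a tamoxifen-inducible construct of cRAF, a kinase upstream of ERK. They were found by symbol among the 52636 genes of the count table: 4 Sprouty genes (Spry1, Spry2, Spry3 and Spry4) and 3 Spred genes (Spred1, Spred2 and Spred3). The rule itself uses gene names. Of the 7 genes, 6 passed the filter on low counts, each with at least 10 counts in every library. The remaining gene, Spry3, had a single count in all.

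Sprouty and Spred proteins restrain signalling from receptor tyrosine kinases such as the FGF receptors to ERK. Sprouty proteins act on the steps between the receptor and the Raf kinases, and several of them are transcribed more when ERK is active, which closes a negative feedback loop. Spred proteins share the cysteine-rich Sprouty domain, carry an EVH1 domain, and bring neurofibromin, the product of Nf1, to the membrane, where it switches Ras off. In the blastocyst the FGF4 to ERK route is known for directing ICM cells towards primitive endoderm and away from naive epiblast.

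Embryos of the genotype Sox2Cre;CRAFR26 were flushed at embryonic day 2.5 and kept for 24 h in KSOM medium with PD173074 at 250 nM, which inhibits FGF receptors, so that both groups carried the construct and both received the inhibitor. The tamoxifen group (4 libraries) was given 250 nM 4-hydroxytamoxifen for 4 h. The vehicle group (3 libraries, time label 0 h) was given ethanol for 4 h. ICMs were freed of their outer layer, the trophectoderm, by immunosurgery, and the labels name them epiblast of embryonic day 3.5. Each library came from 10 pooled ICMs, and the construct was carried by 2 embryonic stem cell clones: clone 4 gave 2 libraries per condition, and clone 8 gave 1 vehicle and 2 tamoxifen libraries. Cre from a Sox2 promoter acts in the epiblast lineage, and ERK activity itself was not measured in these files. Nothing in the labels says which embryos came from which parents, so p-values measure the spread between pools of embryos.

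Upstream sequences are shown for 3 members: Spry2 and Spred1, whose unadjusted p was under 0.05 in the comparison of conditions, and Spry1, the second most abundant member. Each is the 250 bases before the RefSeq start (GRCm38.p6), written 5′ to 3′ along the gene. Capitals mark the core of an ETS factor site, GGAA, or its reverse complement TTCC. ETS factors are among the transcription factors that ERK phosphorylates.
Spry2 (chr14:105896820-105897069, minus strand): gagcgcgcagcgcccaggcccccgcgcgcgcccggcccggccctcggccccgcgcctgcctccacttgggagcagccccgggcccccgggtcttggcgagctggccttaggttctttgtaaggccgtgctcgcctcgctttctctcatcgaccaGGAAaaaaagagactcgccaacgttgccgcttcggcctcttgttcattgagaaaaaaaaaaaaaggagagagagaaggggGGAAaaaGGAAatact
Spry1 (chr3:37639697-37639946, plus strand): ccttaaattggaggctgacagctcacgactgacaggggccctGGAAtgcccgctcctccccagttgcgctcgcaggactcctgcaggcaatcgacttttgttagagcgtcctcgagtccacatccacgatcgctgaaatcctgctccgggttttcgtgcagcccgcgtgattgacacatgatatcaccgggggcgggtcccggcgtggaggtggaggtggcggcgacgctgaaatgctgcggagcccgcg
Spred1 (chr2:117120821-117121070, plus strand): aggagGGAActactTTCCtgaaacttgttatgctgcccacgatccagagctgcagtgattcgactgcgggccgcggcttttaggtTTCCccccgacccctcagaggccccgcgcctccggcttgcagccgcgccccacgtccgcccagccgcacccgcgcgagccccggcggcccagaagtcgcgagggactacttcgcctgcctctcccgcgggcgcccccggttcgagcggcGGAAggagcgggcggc

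The core was read on both strands 3 times before Spry2, at 96, 16 and 9 bases from the start. It was read once before Spry1 and 4 times before Spred1. A longer form that contains the core, CGGAAG, was absent from the windows of Spry2 and Spry1 and occurred once before Spred1. Neither the cAMP response element TGACGTCA nor the AP-1 site TGANTCA was found in any of these 3 windows. These letters are common: of 32851 upstream windows of the same length in the RefSeq table, 93.4% held the core, 13.6% the longer form, 1.55% the cAMP response element and 6.75% the AP-1 site. Counts of the Sp1 site GGGCGG were 0 before Spry2, 1 before Spry1 and 2 before Spred1, and 32.7% of those windows held it. The windows of Spry2 and Spry1 had the same GC content, 62.4%, and that of Spred1 had 70.8%, against a median of 52.4% over all windows. Spred2 and Spred3 also had windows, with 7 cores and 1 core, and are not printed. Spry4, on chromosome 18, was left out of this reading by choice, so nothing is said of its upstream sequence. No window was used for Spry3. The RefSeq start of Spred1 lies upstream of its GENCODE start.

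Depth ranged from 22981498 to 42294719 counts per library, and between 19287 and 22641 genes had at least 1 count. One library stood apart. In vehicle clone8_1, the only vehicle library of clone 8, transcripts under 1000 nt lay at a median of -1.29 (log2) from the median library, against -0.04 to 0.22 in the other 6. The transcripts of the Sprouty and Spred genes are longer, from 2087 nt upwards. Epiblast markers were present in all libraries, and so were markers of other blastocyst lineages. Summed over 10 genes, trophectoderm markers held 8530 to 11230 CPM (counts scaled to a common library size) without tamoxifen and 6546 to 9534 CPM with it, and all 10 had lower means with tamoxifen. The naive epiblast markers summed to 1665 to 2044 CPM and 1708 to 2199 CPM, with 7 of the 9 tested genes higher. Primitive endoderm markers summed to 844.9 to 1148 CPM and 883.7 to 1031 CPM, with 6 of 9 higher. Most of that sum was Dab2, with means of 743 CPM without tamoxifen and 644 CPM with it. Among the 9, tamoxifen lay fully above vehicle for 2, Sox17 and Lama1, and fully below for 0, against 3.71% and 4.74% of all genes. Sox17 had 0.298 to 4.34 CPM without tamoxifen, with as few as 12 counts, and 7.80 to 27.1 CPM with it. Lama1 had 3.51 to 5.20 CPM and 6.75 to 16.3 CPM. Both had an adjusted p of 0.794 (edgeR quasi-likelihood). Red blood cell markers reached at most 1.44 CPM in sum, with Hbb-bs and Hbb-bt at 0. In pooled ICMs, a change in the number of cells of a type cannot be told apart from a change in RNA per cell, and the part of the lineage markers in the results below was not tested.

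Spry2 was the dominant member of the family in these ICMs. Levels of different genes were compared per length, as CPM per kilobase of the typical transcript. On that scale the vehicle mean of Spry2 was 31.1 ± 8.91 (SD, n = 3) and its tamoxifen mean 56.3 ± 4.87 (SD, n = 4). It held between 78.4% and 90.0% of the summed family level in each library. Spry1 followed with 5.22 ± 1.22 (SD, n = 3) and 3.92 ± 0.439 (SD, n = 4) CPM per kilobase. Spry2 lay above Spry1, and Spry1 above the next member, in 7 of 7 libraries.

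The remaining members were far less abundant. Spred2 had 1.08 ± 0.724 (SD, n = 3) and 1.25 ± 0.464 (SD, n = 4) CPM per kilobase, and Spry4 had 0.822 ± 0.361 (SD, n = 3) and 1.15 ± 0.285 (SD, n = 4). The order of this pair was not resolved, since Spred2 was the higher in 4 of 7 libraries. Spred1 had 0.270 ± 0.0969 (SD, n = 3) and 0.651 ± 0.236 (SD, n = 4) CPM per kilobase and lay below Spry4 in 7 of 7 libraries. Spred3 had 0.289 ± 0.0421 (SD, n = 3) and 0.159 ± 0.136 (SD, n = 4), below Spred1 in 6 of 7 libraries. With the longest transcript in place of the typical one, Spred1 lay above Spred3 in 4 of 7, so this pair was not resolved either.

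**Figure D1:**
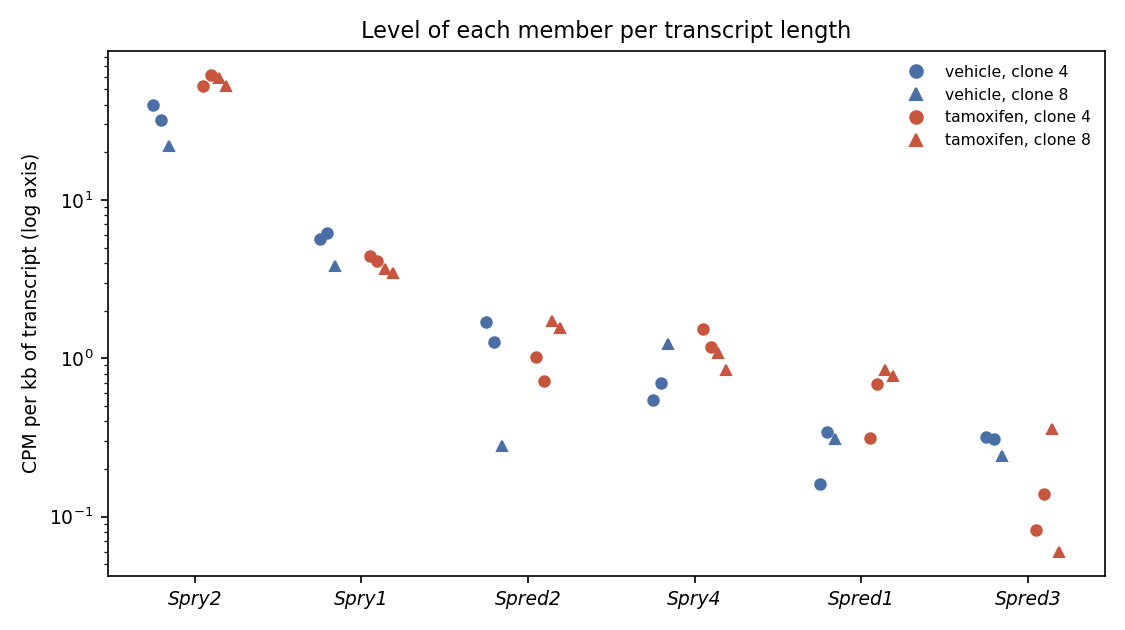
Level of the 6 members that passed the filter in each of the 7 libraries, as CPM per kilobase of transcript on a log axis, ordered by mean level; circles are clone 4, triangles clone 8, blue vehicle and red tamoxifen. Spry2 lies above Spry1 and Spry1 above the others in every library, while the points of Spred2 and Spry4 overlap.

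Spry3 is annotated on the scaffold GL456233.1 (101352 to 106395, minus strand), which is not placed within a chromosome. Its single count was in vehicle clone4_2, and the other 6 libraries had 0. A count of 0 allows up to 3 counts, which is 0.0710 to 0.129 CPM in these 6 libraries. Limits and intervals of this kind cover counting error only, because amplified reads without molecular identifiers are not independent molecules.

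Whether 4 h of tamoxifen altered the family was asked first of the Sprouty genes. After adjustment over all genes, none of the 6 tested members was called at an adjusted p under 0.05 by edgeR's quasi-likelihood test, and across the 16248 genes tested 0% were called. At an unadjusted p under 0.05 in the same test there were 2 members, both higher with tamoxifen (Spry2 and Spred1), against 2.69% of all genes higher and 3.28% lower. DESeq2 likewise called 0 members, and had the same 2 under an unadjusted p of 0.05. The groups were fully separate for 1 of the 6, Spry2, with tamoxifen above vehicle. Among all genes, 3.71% were separate in that direction and 4.74% in the other.

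Spry2 (ENSMUSG00000022114, chromosome 14, 105891947 to 105896819, minus strand) blocks ERK activation downstream of FGF receptors and is bound by the ubiquitin ligase Cbl. In vehicle libraries it had 82.5 CPM in clone4_1, 66.5 in clone4_2 and 45.4 in clone8_1. In tamoxifen libraries it had 109 CPM in clone4_1, 129 in clone4_2, 123 in clone8_1 and 109 in clone8_2. The lowest tamoxifen library was thus above the highest vehicle library, and the tamoxifen libraries lay closer together than the vehicle libraries did. These values rest on 1864 to 4612 counts per library. The log2 fold change was 0.86 ± 0.21 (SE), with a 95% interval from 0.39 to 1.33. Its unadjusted p was 0.00229, rank 24 among the 16248 genes, and after Benjamini-Hochberg adjustment p was 0.794 (edgeR quasi-likelihood). An exact permutation test of its log2 CPM over the 35 ways to divide the libraries gave a two-sided p of 0.0286, the smallest that 3 against 4 libraries can give.

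The separation of Spry2 was also present in ratios that need no scaling between libraries. These ratios were chosen after the values had been seen and are described without a test. Per length, Spry2 was 6.97 (clone4_1), 5.18 (clone4_2) and 5.67 (clone8_1) times Spry1 without tamoxifen. With tamoxifen it was 11.8 (clone4_1), 14.95 (clone4_2), 16.0 (clone8_1) and 15.1 (clone8_2) times Spry1. Relative to the summed CPM of the naive epiblast markers, which do not include it, Spry2 stood at 4.95%, 3.28% and 2.22% in vehicle clone4_1, clone4_2 and clone8_1, and between 5.49% and 7.21% in the tamoxifen libraries. Both ratios separated the groups completely. Spry2 alone already did so, and Spry1, a denominator here, had a lower mean with tamoxifen, so the ratios add no independent support. The summed CPM of the other 6 members did not separate the groups: it spanned 18.5 to 25.7 without tamoxifen and 21.3 to 25.1 with it.

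Spry1 (ENSMUSG00000037211, chromosome 3, 37639947 to 37644598, plus strand), a family member also known as an inhibitor of ERK signalling downstream of growth factor receptors, pointed the other way. It had 14.1, 15.3 and 9.53 CPM in vehicle clone4_1, clone4_2 and clone8_1. With tamoxifen it had 10.96 (clone4_1), 10.3 (clone4_2), 9.14 (clone8_1) and 8.55 CPM (clone8_2). Both clone 4 vehicle libraries were above all tamoxifen libraries, and vehicle clone8_1 lay among them. The log2 fold change of -0.41 ± 0.26 (SE) had an interval from -0.98 to 0.16 and a Benjamini-Hochberg adjusted p of 0.802 (edgeR quasi-likelihood). With 1 library left out it ranged from -0.60 without vehicle clone8_1 (unadjusted p = 0.0385, edgeR) to -0.28 without vehicle clone4_2 (unadjusted p = 0.357, edgeR), and the unadjusted p was under 0.05 in 2 of 17 fits. A gene model of unknown status, Gm42922, overlaps Spry1 by 710 bp on the opposite strand.

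Spry4 (ENSMUSG00000024427, chromosome 18, 38586247 to 38601415, minus strand), another inhibitor of FGF signalling to ERK, had opposite differences in the clones. In clone 4 it had 2.58 and 3.30 CPM in vehicle and 7.25 and 5.56 CPM in tamoxifen libraries. In clone 8 it had 5.85 CPM in the vehicle library and 5.09 and 3.98 CPM in the tamoxifen libraries. Counts were between 104 and 306. Over all libraries the log2 fold change was 0.48 ± 0.39 (SE), with an interval from -0.38 to 1.35 and a Benjamini-Hochberg adjusted p of 0.815 (edgeR quasi-likelihood). It was 0.24 without vehicle clone4_1, 0.29 without tamoxifen clone4_1 and 0.89 without vehicle clone8_1, so its size depended on single libraries. Small RNA genes, Gm27369 and Gm27804, lie within it on the opposite strand.

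**Figure D2:**
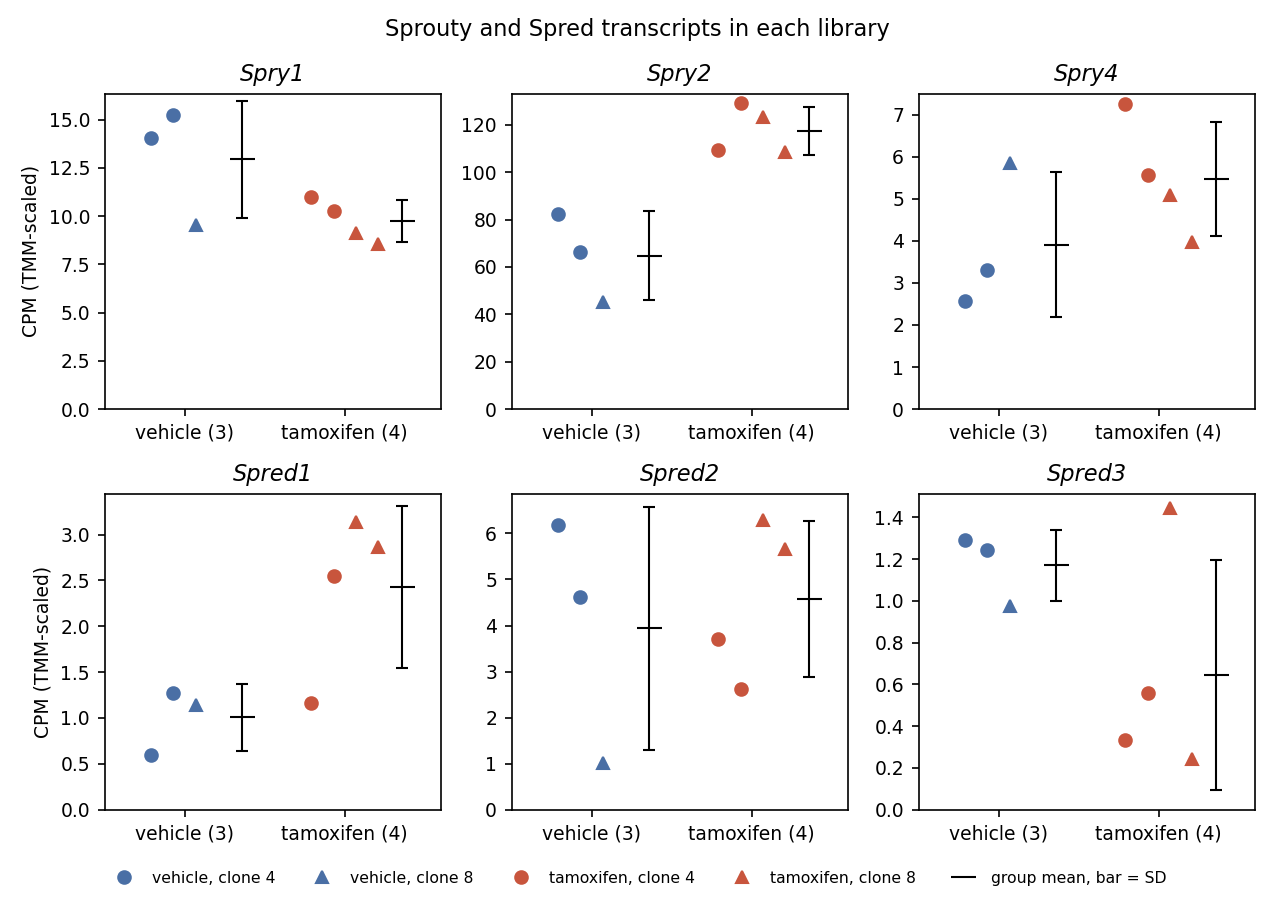
CPM of the 6 tested members in each library, with 1 panel per gene and its own vertical axis from 0; circles are clone 4, triangles clone 8, and the black bars give the group mean ± SD (n = 3 vehicle, n = 4 tamoxifen). Spry2 is the panel in which all 4 tamoxifen points, 109 to 129 CPM, lie above all 3 vehicle points.

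Among the Spred genes, Spred1 was the one with an unadjusted p under 0.05. Spred1 (ENSMUSG00000027351, chromosome 2, 117121374 to 117182279, plus strand) recruits neurofibromin to inactivate Ras. It had 0.595 CPM in vehicle clone4_1, 1.28 in clone4_2 and 1.15 in clone8_1. With tamoxifen it had 1.16 CPM in clone4_1, 2.54 in clone4_2, 3.14 in clone8_1 and 2.86 in clone8_2. Of the 4 tamoxifen libraries, 3 were above all vehicle libraries, and tamoxifen clone4_1 lay within the vehicle range. The log2 fold change was 1.27 ± 0.54 (SE), with an interval from 0.06 to 2.48. Its unadjusted p was 0.0419 and after Benjamini-Hochberg adjustment p was 0.794 (edgeR quasi-likelihood). The exact permutation p was 0.0857. These values rest on only 24 to 118 counts per library, and the unadjusted p was under 0.05 in 6 of 17 fits with other settings or libraries, the one above included.

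Spred2 (ENSMUSG00000045671, chromosome 11, 19924375 to 20024026, plus strand), a close relative of Spred1 that also restrains Ras to ERK signalling, was spread widely within the vehicle group. It had 6.18 and 4.61 CPM in the clone 4 vehicle libraries and 1.02 CPM in vehicle clone8_1, where it had 42 counts. In tamoxifen libraries it had 3.72 and 2.63 CPM in clone 4 and 6.28 and 5.66 CPM in clone 8. The groups overlapped over most of their range. The log2 fold change of 0.22 ± 0.57 (SE) had an interval from -1.05 to 1.48 and a Benjamini-Hochberg adjusted p of 0.944 (edgeR quasi-likelihood). Its sign turned to -0.25 without vehicle clone8_1.

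Spred3 (ENSMUSG00000037239, chromosome 7, 29158829 to 29170411, minus strand), the third Spred gene, was near the lower limit of measurement, with 10 to 52 counts. It had 1.29, 1.25 and 0.975 CPM in vehicle clone4_1, clone4_2 and clone8_1. In tamoxifen libraries it had 0.332 (clone4_1), 0.560 (clone4_2), 1.44 (clone8_1) and 0.243 CPM (clone8_2). Tamoxifen clone8_1 was above all vehicle libraries and the other 3 tamoxifen libraries were below them. The log2 fold change of -0.87 ± 0.73 (SE) had an interval from -2.50 to 0.77 and a Benjamini-Hochberg adjusted p of 0.825 (edgeR quasi-likelihood). Without tamoxifen clone8_1 it was -1.64 (unadjusted p = 0.0377, edgeR), and without tamoxifen clone8_2 it was -0.59. The protein-coding gene Ggn overlaps Spred3 by 202 bp on the opposite strand.

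The clones were then compared, because clone 8 contributes 1 vehicle library. Within clone 4 alone, 0 of the 6 members were called (edgeR quasi-likelihood, Benjamini-Hochberg), as were 0% of 16060 genes. At an unadjusted p under 0.05 there were 2 members, both higher, against 3.54% of genes higher and 4.33% lower. They were Spry2 (log2 fold change 0.67 ± 0.19, SE; unadjusted p = 0.00867, edgeR) and Spry4 (1.12 ± 0.42, SE; unadjusted p = 0.0317, edgeR). As differences of mean log2 CPM, Spry2 was higher with tamoxifen in clone 4 (0.68) and in clone 8 (1.35), and so was Spred1 (0.94 and 1.36). Spry1 was lower in both (-0.46 and -0.11), and so was Spred3 (-1.42 and -0.62). The other two members differed in sign: Spry4 by 1.11 in clone 4 and -0.37 in clone 8, and Spred2 by -0.75 and 2.49.

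A test of the difference between clones called 0 of the 6 members, against 3.16% of genes (interaction of clone and condition, edgeR quasi-likelihood, Benjamini-Hochberg). Spred2 came nearest, with a difference in log2 fold change of 3.30 ± 0.75 (SE) and an adjusted p of 0.0591. It was the 1 of 6 members with an unadjusted p under 0.05 in this test, a threshold that 14.8% of all genes passed. For Spry4 the difference was -1.49 ± 0.65 (SE), with an adjusted p of 0.341 in the same edgeR test, and for Spry2 it was 0.68 ± 0.32 (SE), with an adjusted p of 0.371. The interaction rests on vehicle clone8_1, the library with few short transcripts. That library had the lowest level of Spry1, Spry2, Spred2 and Spred3 and the highest of Spry4 within the vehicle group; the part of the library in these differences was not tested.

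**Figure D3:**
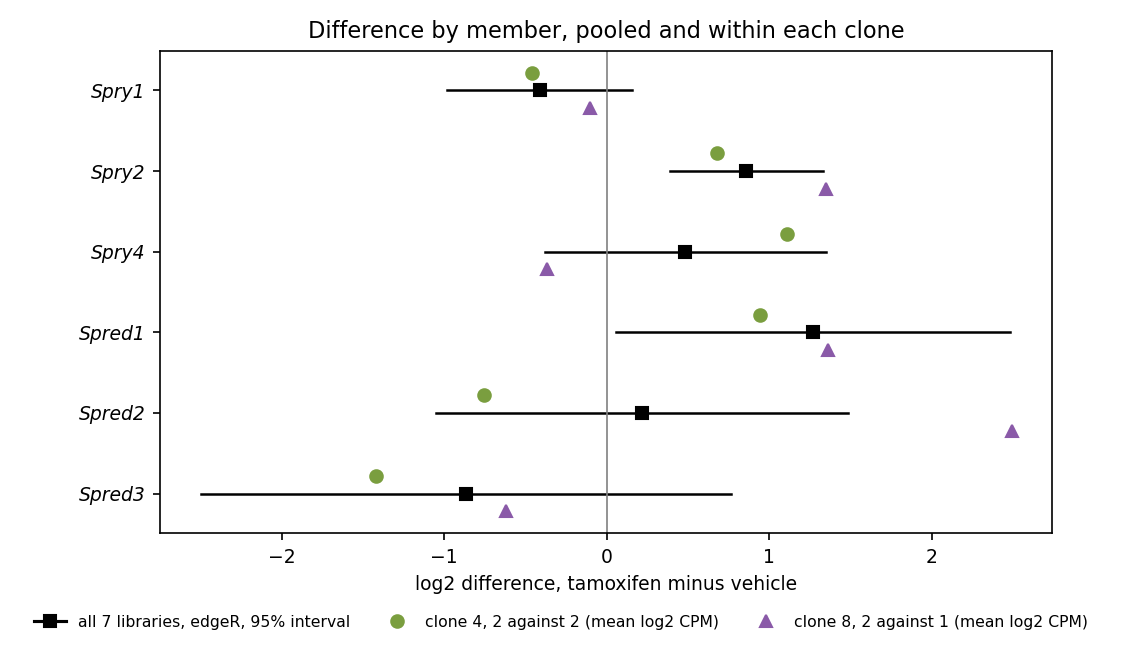
Difference between tamoxifen and vehicle on the log2 scale for each tested member; squares with lines are the edgeR fit over all 7 libraries with its 95% interval, circles the difference of mean log2 CPM in clone 4 (2 against 2 libraries), and triangles that in clone 8 (2 against 1). Both clones lie to the right of 0 for Spry2 and Spred1 and to the left for Spry1 and Spred3, and they fall on opposite sides for Spry4 and Spred2.

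Other genes of the pathway were described from 4 lists, as counts beside the same counts over all genes. Of 16248 genes, 8408 had a positive log2 fold change, with a median of 0.019. At an unadjusted p under 0.05 (edgeR), 2.69% of all genes were higher and 3.28% lower. The groups were separate for 3.71% of all genes with tamoxifen above vehicle and for 4.74% with it below. Among the Sprouty and Spred genes tested, 4 were positive and 2 negative, with a median of 0.35. Other feedback inhibitors of receptor and ERK signalling had 6 of 10 positive and a median of 0.18. None of these 10 was called by edgeR, and 1 had an unadjusted p under 0.05: Errfi1, an inhibitor of the EGF receptor, whose log2 fold change was -0.73 ± 0.29 (SE). Its vehicle mean was 31.4 ± 10.5 CPM (SD, n = 3) and its tamoxifen mean 18.9 ± 4.87 CPM (SD, n = 4). Dusp6, the phosphatase that removes the activating phosphates of ERK, had a log2 fold change of -0.17 ± 0.26 (SE). Il17rd, which encodes the FGF antagonist Sef, had 0.44 ± 0.43 (SE). Neither had an unadjusted p under 0.05.

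Among 10 genes that ERK is known to induce, most of them for transcription factors (Ier3 is not), 5 were positive and 5 negative, and none was called by edgeR. Fos, an immediate early gene of the AP-1 family, was the 1 gene with an unadjusted p under 0.05. Its log2 fold change of -1.37 ± 0.36 (SE) was opposite in sign to that of Spry2. Its unadjusted p was 0.00343, rank 37 among all genes, and its Benjamini-Hochberg adjusted p 0.794 (edgeR quasi-likelihood). The groups were separate, at 44.2 to 95.6 CPM without tamoxifen and 16.2 to 42.1 CPM with it. Etv5, an ETS factor gene, had 0.47 ± 0.22 (SE; unadjusted p = 0.0599, edgeR), and Egr1 had 0.21 ± 0.66 (SE). As differences of mean log2 CPM, Etv5 stood at 0.84 in clone 4 and -0.05 in clone 8, which has 1 vehicle library.

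Of 12 genes for proteins that bind or are recruited by Sprouty and Spred proteins, 11 were tested, 5 of them positive, and none was called by edgeR; Cav1 had 0 counts. Cbl, the ubiquitin ligase that binds Sprouty proteins, had every tamoxifen library below every vehicle library (log2 fold change -0.66 ± 0.23, SE; unadjusted p = 0.0180, edgeR). For Nf1 the vehicle mean was 4.92 ± 3.27 CPM (SD, n = 3), the tamoxifen mean 5.72 ± 0.570 CPM (SD, n = 4), and the log2 fold change 0.22 ± 0.43 (SE). Among 8 genes of FGF ligand, receptors and adaptors, 4 were positive and none was called by edgeR. Fgfr1, a main FGF receptor of the epiblast, was higher in all tamoxifen libraries than in all vehicle libraries (0.40 ± 0.17, SE; unadjusted p = 0.0441, edgeR). Gab1, an adaptor that links receptors to Ras signalling, was separate in the other direction, at 95.4 to 113.8 CPM without tamoxifen and 58.8 to 89.1 CPM with it (-0.40 ± 0.18, SE; unadjusted p = 0.0514, edgeR).

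**Figure D4:**
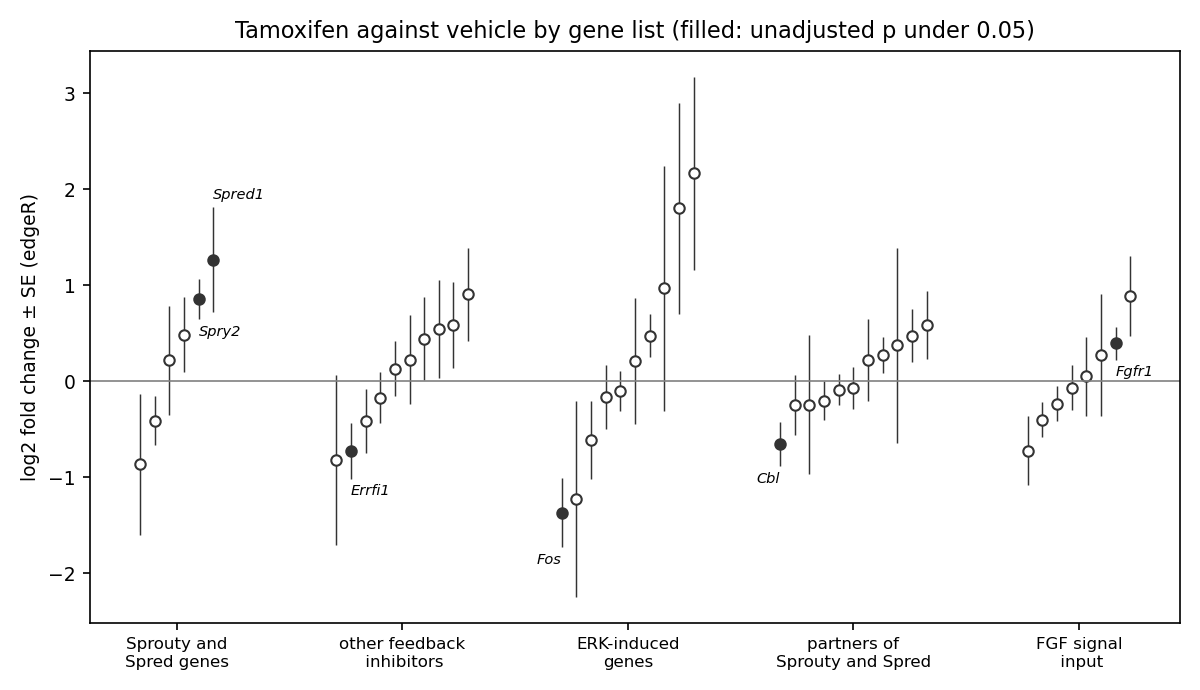
Log2 fold change ± SE (edgeR, all 7 libraries) of each tested gene in the Sprouty and Spred family and in 4 lists of pathway genes, sorted within each list; filled points had an unadjusted p under 0.05 and are named. No gene shown passed an adjusted p of 0.05, and Spry2 and Spred1 are the filled points of the family.

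The genes whose log2 CPM followed Spry2 most closely over the 7 libraries were Gtsf1l (Pearson r = 0.987, Spearman rho = 0.964), Dennd6b (r = 0.981, rho = 1.00) and Gm6055 (r = 0.978, rho = 0.964), out of 8052 genes with a mean of at least 10 CPM. These are the extremes of many genes over few libraries that differ in condition and depth, so they are given without a p. Like Spry2, all 3 had a positive log2 fold change with tamoxifen (0.75, 0.86 and 0.81). Spry1, the other member above that level, ranked 4867 in the same order (r = -0.306). The remaining members had r with Spry2 of 0.583 (Spred1), 0.598 (Spred2), 0.179 (Spry4) and -0.398 (Spred3).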

How the data were processed

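Raw counts per Ensembl gene were deposited by the authors as 1 table with a column for each of the 7 libraries and no normalisation. Per the submitters' processing notes, bcl2fastq 2.19.1, STAR 2.5.3a and the build mm10 were used; the counting program, annotation and strand setting are not given in the sources used here. Symbols, coordinates and transcript lengths came from GENCODE M21 (GRCm38), which held 52489 of 52636 gene IDs. A typical length is the median over protein-coding basic transcripts, or over all basic transcripts where none is protein-coding. Counts were fitted with edgeR 4.0.16 (R 4.3.3): TMM factors, its expression filter by condition, and a quasi-likelihood F test on condition alone. Log2 CPM used a prior count of 2, and intervals are 95%. The F test gives no SE, so each edgeR SE is the absolute log2 fold change divided by the square root of F. Intervals were built from that SE with a t quantile. P-values were adjusted by Benjamini-Hochberg over all genes tested. DESeq2 1.42.0, limma-voom (limma 3.58.1) and other settings were alternatives. The fit was also run on simulated data with known changes, and nothing is drawn from that run about the power to call changes here. The common spread between libraries (edgeR's biological coefficient of variation) was 0.456. Replicates were separate libraries: no pair within a group was identical (Pearson r of log2 CPM at most 0.965).

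The members and lists were chosen with earlier results of these data known. The lists (other feedback inhibitors, ERK-induced genes, partners, FGF signal input and 4 marker lists) came from general knowledge. Named list genes are those of the 4 pathway lists with an unadjusted p under 0.05, and Dusp6, Etv5, Egr1, Il17rd and Nf1; the 3 genes most like Spry2 were taken by Pearson r. Gab1 and Ier3 were named after their values were seen. Of the marker lists counts and sums are given, with Hbb-bs, Hbb-bt, Dab2, Sox17 and Lama1 named after their values were seen. Upstream sequences are from RefSeq (GRCm38.p6); 5 members had a window that was used.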

Additional observations from a re-analysis of the deposited data

How the results depend on the processing

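The count of genes called across the table was 0, as it was in most alternatives; DESeq2 called 4 and leaving out both libraries numbered clone8_1 called 2. None of the Sprouty or Spred genes and none of the pathway list genes was called in any of the 17 fits. The genes with an unadjusted p under 0.05 numbered 970 of 16248 tested, and 1803 of 28364 without a filter on low counts. When 1 library was left out they numbered from 608 of 15546 (without tamoxifen clone4_1) to 1516 of 16896 (without vehicle clone4_1). Spry2 kept its sign and an unadjusted p under 0.05 in 17 of 17 fits (edgeR, DESeq2 or limma-voom), with p-values from 0.000268 to 0.0106, adjusted p-values from 0.146 to 0.961, and log2 fold changes from 0.65 (without vehicle clone8_1) to 1.06 (without vehicle clone4_1) when 1 library was left out. Spry1, Spry4, Spred1 and Spred3 kept their sign in all 17, though which of Spred1 and Spred3 differed more did not hold: with limma-voom they stood at 1.21 and -1.30. Spred2 did not: it was -0.77 in clone 4 alone, -0.43 without both clone8_1 libraries, and between -0.25 (without vehicle clone8_1) and 0.70 (without vehicle clone4_1) with 1 library left out; the cause was not tested. With clone and number as a replicate block, 721 genes had an unadjusted p under 0.05 and 0 members were called. Libraries with the same clone and number did not deviate together: their deviations correlated at 0.00775 (clone4_1), 0.0206 (clone4_2) and -0.0683 (clone8_1). The labels name no pairing, and with so few libraries these values cannot exclude a shared litter, day or batch. Within clone 4, dropping the filter gave 217 genes called in place of 0, and no member. Scaling factors from transcripts of at least 1000 nt, an alternative chosen after seeing the data, gave 929 genes at an unadjusted p under 0.05 and no member called. The interaction was not refitted under other settings; it cannot be fitted without vehicle clone8_1. Counts of 10 to 118 limit what can be said of Spred1 and Spred3.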
